A study of Mus musculus with 6 samples.

Results

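Atrial myocyte genes were followed in 6 mouse hearts through 7 genes, *Myl7*, *Myl4*, *Sln*, *Bmp10*, *Mybphl*, *Dkk3* and *Stard10*, out of 19505 genes named on the array. Each gene was found by its symbol and had 1 probe set, the group of array probes that is summarized into a single signal. The hearts came from 3 *Col1a2*-/- mice (2767, 2770 and 3200, by their animal numbers) and from 3 *Col1a2*+/- mice (2769, 3201 and 3294), all on the C57/BL6 background and 2 months of age. *Col1a2*-/- mice carry a germline knockout first allele, in which a cassette interrupts the gene for the α2 chain of type I collagen, on both chromosomes, and the *Col1a2*+/- controls carry it on one, so that the allele is present in every cell type of every heart and no wild-type heart was on the arrays. RNA of each heart was hybridised to its own array (Clariom S Mouse, Affymetrix). Whole heart is the tissue named in the labels and whole ventricles that named in the methods, and neither gives the extent of atrial tissue in each sample. The signals are on the log2 scale, on which a difference of 1 is a doubling, and a dim limit was set at 5.99, the 95th percentile of 1465 probe sets for smell, pheromone and taste receptors.

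Atrial and ventricular cardiomyocytes build their sarcomeres from partly different proteins. Atrial cells use their own regulatory and essential myosin light chains, regulate the calcium pump of the sarcoplasmic reticulum through sarcolipin where ventricular cells use phospholamban, and secrete peptides into the blood, of which atrial natriuretic peptide is the best known. In the adult ventricle these genes are largely silent, and some are re-expressed in the stressed ventricle. In RNA of bulk tissue, more atrial cells and more atrial transcript per cell cannot be told apart.

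The promoters of 2 genes with unlike patterns over the hearts are shown, *Myl7*, whose level was spread over the hearts, and *Bmp10*, whose level stood out in a single heart. Each window holds 250 bases before and 50 bases after the start of the gene in RefSeq (GRCm38.p6) and is written in the direction of transcription, with matches to searched motifs in capitals. *Myl7* lies at chr11:5898733-5899032 on the minus strand and *Bmp10* at chr6:87428744-87429043 on the plus strand.
Myl7: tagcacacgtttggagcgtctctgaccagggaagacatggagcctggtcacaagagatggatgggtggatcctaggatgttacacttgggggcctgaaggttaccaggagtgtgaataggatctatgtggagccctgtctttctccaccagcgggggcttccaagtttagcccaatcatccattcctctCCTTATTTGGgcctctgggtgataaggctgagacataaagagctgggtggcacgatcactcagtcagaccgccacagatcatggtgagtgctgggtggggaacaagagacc
Bmp10: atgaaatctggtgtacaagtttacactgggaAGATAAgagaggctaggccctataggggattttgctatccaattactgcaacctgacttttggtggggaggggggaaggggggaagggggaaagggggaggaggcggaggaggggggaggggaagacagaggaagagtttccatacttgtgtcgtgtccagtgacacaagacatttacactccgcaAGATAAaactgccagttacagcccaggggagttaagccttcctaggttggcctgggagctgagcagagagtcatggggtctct
Both strands were searched for the GATA motif as AGATAA, for the T-box motif as AGGTGT and for the half-site of nuclear receptors as AGGTCA. Other forms of the GATA motif were not searched, among them TGATAA, which the *Myl7* window holds in small letters. The MEF2 site and the CArG box, the site of serum response factor, were searched as well, and no pair of matches overlapped. The capitals in *Myl7* mark 1 CArG box, at −61 to −52 from the start, and those in *Bmp10* mark 2 GATA motifs. Of 32851 promoter windows, 1.63% hold at least 1 CArG box and 11.2% at least 1 GATA motif. The share that holds 2 GATA motifs was not counted. Promoters of 5 of the 7 genes were in the table. *Mybphl* had 1 GATA motif, and *Myl4* and *Stard10* had no match. A match is a stretch of letters and not evidence that a factor binds.

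*Col1a2*, the check of the genotype labels, had 6.86, 6.84 and 6.48 in *Col1a2*-/- hearts 2767, 2770 and 3200, against 9.47, 9.06 and 9.18 in *Col1a2*+/- hearts 2769, 3201 and 3294 (log2 signals, adjusted p = 0.00626 from limma, which did not pass without heart 2770 or heart 3294 or with the methods' t-test, while the difference stayed between −2.60 and −2.39). *Col1a2*+/- heart 3294 stood apart in the atrial genes and also in genes that are not of atrial myocytes. The Y-linked genes *Uty*, *Eif2s3y* and *Kdm5d* lay between 8.84 and 11.90 in the *Col1a2*-/- hearts, against 9.06 to 11.87 in *Col1a2*+/- hearts 2769 and 3201 and 2.65 to 4.68 in heart 3294, which was thus under the dim limit for each of them. The labels give no sex, and the methods state that males and females were used equally in the study. Heart 3294 alone thus lacked the signal of a male heart. The *Col1a2*+/- group was mixed in this signal and the *Col1a2*-/- group was not, so comparisons without heart 3294 hold only hearts with Y-linked signal. Of 10 genes of brown fat, which lies around the great vessels, 5 were highest in heart 3294, *Elovl3* among them, as were 20.2% of all probe sets. *Ucp1*, the uncoupling protein of brown fat, had 8.33 there, against 3.60 to 4.30 in the others, and the fat hormone gene *Adipoq* had 7.78, against 5.14 to 5.99, while *Elovl3*, *Otop1* and *Plin1* were under the dim limit in every heart. The summed signal of the 10 was between 16.81 and 17.24 in *Col1a2*-/- hearts and between 16.65 and 17.08 in *Col1a2*+/- hearts on the log2 scale, and was lowest in heart 3294. This sum is mostly that of *Fabp4*, which had 16.475 in heart 3294, against 16.72 to 17.17 in the others. The next brightest gene, *Ppara*, had 12.79 in heart 3294, its highest value. *Fabp4* and *Ppara* were above the dim limit in all 6 hearts, while *Ucp1* and *Adipoq* were above it in heart 3294 alone. The sum therefore does not follow *Ucp1* and *Adipoq*. Of 8 genes of lung epithelium, 7 had a mean under the dim limit, *Sftpc* and *Scgb1a1* among them. The medians of the arrays lay between 6.64 and 6.67. The part of Y-linked genes or of fat in the levels of the atrial genes was not tested.

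The genes of atrial contraction differed between hearts of one genotype by more than between genotypes. *Myl7*, the atrial regulatory myosin light chain, was measured at 12.08, 10.41 and 10.85 in *Col1a2*-/- hearts 2767, 2770 and 3200, against 9.74, 8.07 and 13.47 in *Col1a2*+/- hearts 2769, 3201 and 3294. *Myl4*, the atrial essential myosin light chain, had 14.23, 12.82 and 13.27 in the *Col1a2*-/- hearts, against 12.26, 10.62 and 15.61 in the *Col1a2*+/- hearts, in the same order of animals. For both genes the *Col1a2*+/- hearts held the highest and the lowest value of all 6, with the *Col1a2*-/- hearts between them. Within the *Col1a2*+/- genotype, heart 3294 had 42.3 times the *Myl7* signal and 31.8 times the *Myl4* signal of heart 3201. *Mybphl*, a myosin-binding protein of atrial sarcomeres, lay near or under the dim limit, at 6.34, 4.57 and 4.65 in *Col1a2*-/- hearts 2767, 2770 and 3200, against 4.79, 4.15 and 7.11 in *Col1a2*+/- hearts 2769, 3201 and 3294. Its signal was above the dim limit in 2 of the 6 hearts, 2767 and 3294.

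*Sln*, the gene of sarcolipin, which inhibits the sarcoplasmic reticulum calcium pump, had the same spread. It was measured at 10.93, 9.39 and 10.38 in *Col1a2*-/- hearts 2767, 2770 and 3200, against 8.76, 8.05 and 13.36 in *Col1a2*+/- hearts 2769, 3201 and 3294. Hearts 3294 and 3201 differed by 5.31 on the log2 scale, which is 39.8-fold, and *Myl7* and *Myl4* differed between the same hearts by 5.40 and 4.99.

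Both secreted factors were highest in heart 3294, and one of them was bright in that heart alone. *Bmp10* encodes a ligand of the bone morphogenetic protein family that, in the adult mouse heart, is known from the right atrium. Its signal was 3.75, 3.81 and 5.35 in *Col1a2*-/- hearts 2767, 2770 and 3200, against 3.53, 4.26 and 13.89 in *Col1a2*+/- hearts 2769, 3201 and 3294. It was thus under the dim limit in 5 hearts, and its range over the hearts, 10.35 on the log2 scale, was exceeded by 1 of 22206 probe sets, which has no symbol. Heart 2767, which ranked second for *Myl7*, *Myl4*, *Sln* and *Mybphl*, was among the dim hearts for *Bmp10*. *Dkk3*, a secreted protein of the Dickkopf family, had 8.56, 8.70 and 8.88 in the *Col1a2*-/- hearts, against 7.81, 7.09 and 9.94 in the *Col1a2*+/- hearts, in the same order of animals. The SD was 0.16 over the *Col1a2*-/- hearts and 1.48 over the *Col1a2*+/- hearts (n = 3 each), whose values enclosed those of the *Col1a2*-/- hearts. *Stard10*, which encodes a lipid transfer protein, varied least of the 7 genes, at 10.28, 10.04 and 10.27 in the *Col1a2*-/- hearts, against 9.99, 9.94 and 11.64 in the *Col1a2*+/- hearts. Apart from heart 3294 its values lay close together.

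**Figure D1:**
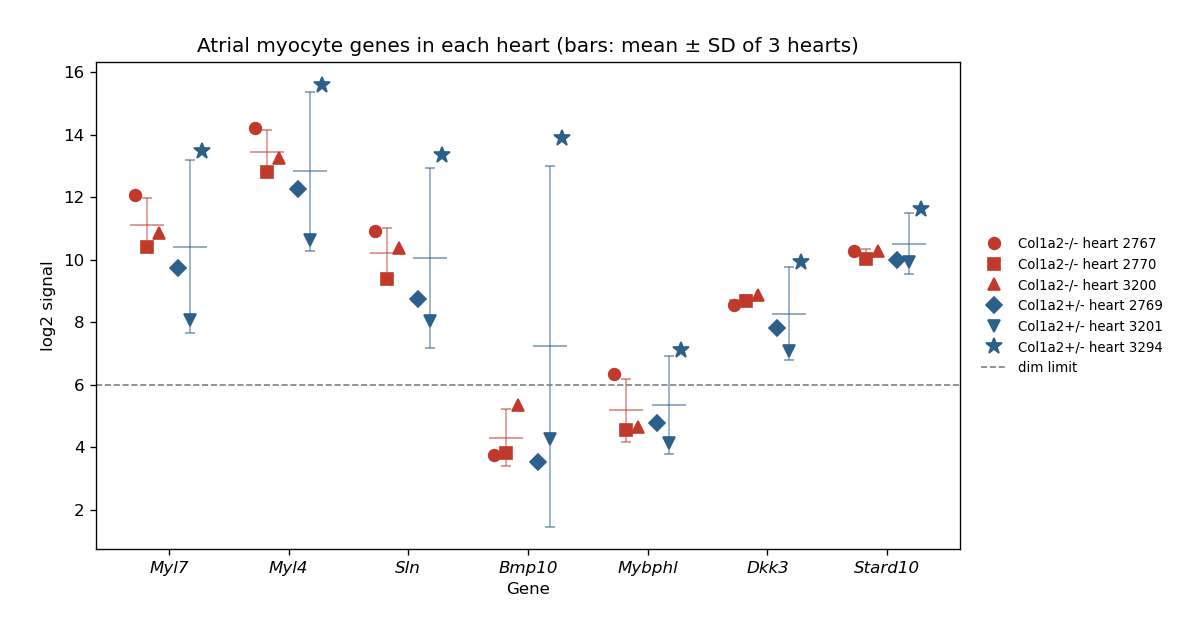
Log2 signal of the 7 atrial genes in each heart, with *Col1a2*-/- hearts left of *Col1a2*+/- hearts, bars for the mean ± SD of 3 hearts and a dashed line at the dim limit of 5.99. Heart 3294 (star) is the highest for every gene, and *Bmp10* is above the dim limit there only, at 13.89.

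The 7 genes shared the highest heart, and 4 of them shared the whole order of the hearts. Heart 3294 was the highest for 7 of the 7 genes, while 20.2% of all probe sets were highest in that heart, and heart 3201 was the lowest for 6 of the 7, while 16.2% of all probe sets were lowest there. For *Bmp10*, heart 2769 was lowest, at a level under the dim limit. The full order, 3294, 2767, 3200, 2770, 2769 and 3201 from high to low, was shared by 4 genes, *Myl7*, *Myl4*, *Sln* and *Stard10*, and 0.171% of all probe sets had it. For *Stard10* the order rests on small gaps, with 10.28 against 10.27 in hearts 2767 and 3200 and 9.99 against 9.94 in hearts 2769 and 3201. *Mybphl* departed from it by placing heart 2769 above hearts 3200 and 2770. *Dkk3* placed heart 2767 below hearts 3200 and 2770, and *Bmp10* ordered its 5 dim hearts otherwise. Relative to the mean of each gene over the 6 hearts, the median of the 7 genes was 0.78, −0.36 and 0.08 in *Col1a2*-/- hearts 2767, 2770 and 3200, against −0.88, −1.50 and 2.48 in *Col1a2*+/- hearts 2769, 3201 and 3294. A range over the hearts of at least 1 on the log2 scale was found for 7 of the 7 genes and for 18.7% of all probe sets. The median range of the 7 genes was 4.99, or 2.19 without heart 3294, and that of all probe sets with all hearts was 0.66. These are descriptions, since the genes were chosen with such values known.

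No genotype difference was detected for the atrial genes with all hearts in the comparison. From limma, 0 of the 7 genes passed an adjusted p under 0.05, as did 0.0045% of all probe sets, which is *Col1a2* alone. None passed an unadjusted p under 0.05 in either direction, while 2.67% of all probe sets were higher and 2.79% lower in *Col1a2*-/- hearts, and the methods' t-test gave 0 of 7 as well. The genotypes overlapped for each of the 7 genes, while 5.13% of all probe sets were higher and 5.47% lower without overlap. The mean log2 signal of *Myl7* was 11.11 ± 0.87 for *Col1a2*-/- and 10.43 ± 2.77 for *Col1a2*+/- (SD, n = 3 each). Its log2 difference of 0.69, *Col1a2*-/- minus *Col1a2*+/-, had a standard error of 1.12 (adjusted p = 0.962 from limma). That of *Myl4* was 13.44 ± 0.72 for *Col1a2*-/- and 12.83 ± 2.54 for *Col1a2*+/-, and that of *Sln* was 10.23 ± 0.78 for *Col1a2*-/- and 10.06 ± 2.88 for *Col1a2*+/- (SD, n = 3 each). Their log2 differences were 0.61 (standard error 1.03) and 0.18 (standard error 1.16). The difference of *Dkk3* was 0.43 (standard error 0.59), that of *Mybphl* was −0.16 (standard error 0.73) and that of *Stard10* was −0.32 (standard error 0.40). *Bmp10* had a difference of −2.92 (standard error 2.26), where all *Col1a2*-/- hearts and 2 of the *Col1a2*+/- hearts were dim. The median of the 7 differences was 0.18, and 4 of the 7 were above 0. For *Myl7*, *Myl4*, *Sln* and *Bmp10* the standard error exceeded 1, so that a doubling was not detectable with 3 hearts per genotype. A doubling was also under 2 standard errors for *Mybphl* and *Dkk3*. That no difference was detected does not show that the genotypes are equal for any of these genes.

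The sign of the difference turned on single *Col1a2*+/- hearts for each gene, and for *Sln* and *Mybphl* on single *Col1a2*-/- hearts as well. Without heart 3294, 7 of the 7 genes were higher on average in *Col1a2*-/- hearts, and without heart 3201, 0 of the 7 were. Without *Col1a2*-/- heart 2767 the median of the 7 differences was −0.17, which is the value of *Sln*, and *Mybphl* had a difference of 0.14 without *Col1a2*-/- heart 2770 and 0.10 without *Col1a2*-/- heart 3200. Without heart 3294, the *Col1a2*+/- mean of *Myl7* was 8.90, and the log2 difference was 2.21 (standard error 0.59), or 4.62-fold. For *Myl4* it was 2.00 (standard error 0.54), for *Sln* 1.83 (standard error 0.44) and for *Dkk3* 1.26 (standard error 0.25). These 4 genes were higher at an unadjusted p under 0.05 from limma and 0 were lower, while 2.58% of all probe sets were higher and 2.77% lower. None passed the adjusted p (0.926 for each of these 4 genes), and 0% of all probe sets did. In the same 5 hearts, the *Col1a2*-/- hearts lay above both *Col1a2*+/- hearts for 5 of the 7 genes, those 4 and *Stard10*, and below both for 0, while 9.92% of all probe sets lay above and 10.2% below. Of the 4492 probe sets that were highest in heart 3294, 8.55% had all *Col1a2*-/- hearts above hearts 2769 and 3201. Heart 3294 was singled out after its high values were seen, and leaving it out lowers the *Col1a2*+/- mean of these genes by construction, so these counts describe the 5 hearts left and do not test the genotype. Leaving it out also takes out the only heart without Y-linked signal. *Mybphl* and *Bmp10* overlapped in the 5 hearts, with log2 differences of 0.72 (standard error 0.52) and 0.40 (standard error 0.49), and *Bmp10* was under the dim limit in all 5.

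**Figure D2:**
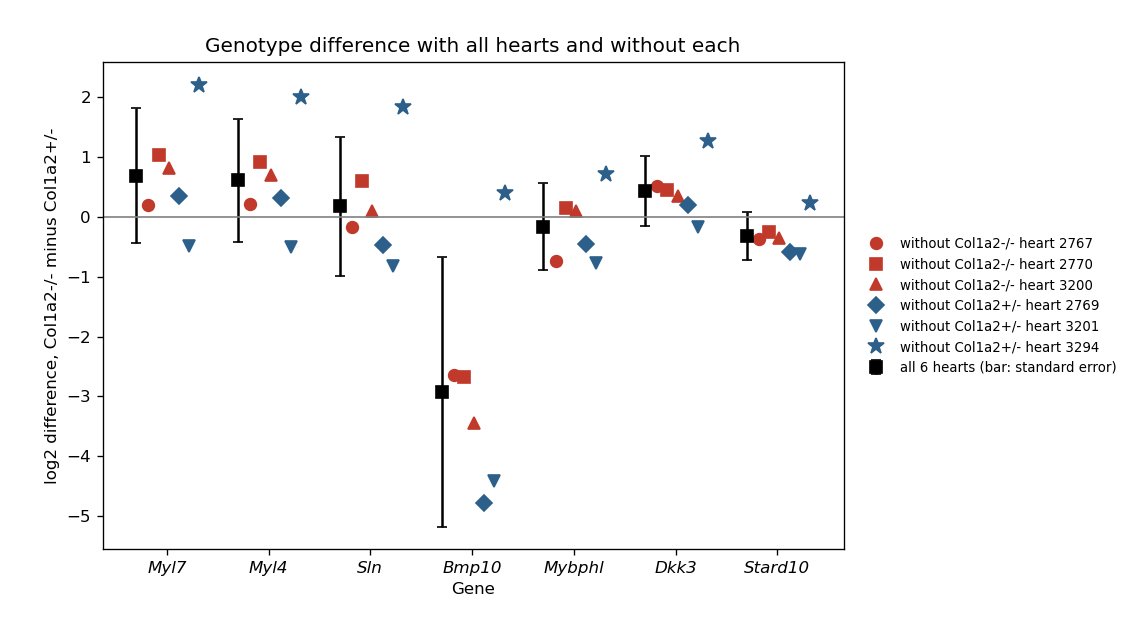
Log2 difference of each atrial gene, *Col1a2*-/- minus *Col1a2*+/-, with all 6 hearts (black squares, bar for the standard error from limma) and with each heart left out in turn. Leaving out heart 3294 (star) gives the highest value of each gene, and leaving out heart 3201 gives values under 0 for all 7.

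The animal numbers fall into 2 series, with hearts 2767, 2770 and 2769 in one and hearts 3200, 3201 and 3294 in the second. What the numbering follows (litter, batch or date) is not stated in the labels. The methods state that age-matched littermates were compared, without naming the litters. Within the first series, *Myl7* was higher in *Col1a2*-/- than in *Col1a2*+/- hearts by 1.51 on the log2 scale, *Myl4* by 1.27, *Sln* by 1.40, *Dkk3* by 0.81, *Mybphl* by 0.66, *Bmp10* by 0.24 and *Stard10* by 0.17. In the second series, which holds both the highest and the lowest heart, the differences were 0.08 for *Myl7*, 0.15 for *Myl4*, −0.33 for *Sln*, 0.37 for *Dkk3*, −0.98 for *Mybphl*, −3.72 for *Bmp10* and −0.52 for *Stard10*. The values of *Bmp10* rest on dim signals, with heart 3294 alone above the dim limit. Each series holds a single heart of one genotype, so these values have no replicate check on that side. The difference between the series, hearts 3200, 3201 and 3294 minus hearts 2767, 2769 and 2770 with the genotype in the fit, had a median of 0.45 over the 7 genes. It passed an adjusted p for 0 of the 7 genes (0% of all probe sets) and an unadjusted p under 0.05 for 0 (6.33% of all probe sets), with an adjusted p from limma of 0.952 for *Sln*. The interaction of genotype and series passed for 0 of the 7 (adjusted p of at least 0.999 each, 0% of all probe sets).

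Other genes known from atrial myocytes followed the 7 genes only in part. Of 16 such genes, 15 had a probe set and 14 of these had a mean above the dim limit. None passed an unadjusted p under 0.05 from limma between the genotypes, and their median log2 difference was −0.0035, while the median of all probe sets was −0.00062. Without heart 3294 their median was 0.069, and the *Col1a2*-/- hearts lay above both *Col1a2*+/- hearts for 3 of the 15 (9.92% of all probe sets) and below both for 1 (10.2% of all probe sets). The 3 were *Nppa*, *Pam*, which encodes a peptide-amidating enzyme, and the calcium channel gene *Cacna1d*, which was under the dim limit in every heart, and the 1 was *Angpt1*. *Nppa*, the gene of atrial natriuretic peptide and also a gene of the stressed ventricle, varied most. Its signal was 17.46, 17.33 and 17.20 in *Col1a2*-/- hearts 2767, 2770 and 3200, against 16.18, 15.95 and 18.58 in *Col1a2*+/- hearts 2769, 3201 and 3294. Its highest and lowest hearts were those of *Myl7*, and the *Col1a2*-/- hearts differed little from each other. Its log2 difference was 0.43 with all hearts (adjusted p = 0.958 from limma) and 1.27 without heart 3294 (adjusted p = 0.849). *Tbx5*, a T-box transcription factor of the atria and left ventricle, had 9.02, 8.96 and 9.48 in the *Col1a2*-/- hearts, against 9.25, 9.52 and 10.64 in the *Col1a2*+/- hearts, in the same order of animals. *Sbk2*, an atrial kinase gene, was also highest in heart 3294, at 8.25, with the other 5 hearts between 6.64 and 7.60, and so was *Fgf12*, a fibroblast growth factor that stays in the cell and binds sodium channels, at 8.90, against 7.59 to 8.66. *Kcnj3*, a subunit of the acetylcholine-activated potassium channel, had a range of 1.02. *Angpt1*, the ligand of the receptor Tie2, was lowest in heart 2770, with 12.58 to 13.14 in *Col1a2*-/- hearts and 12.80 to 13.61 in *Col1a2*+/- hearts. In all, 8 of the 15 were highest in heart 3294 (20.2% of all probe sets), and 6 had a range of at least 1 (18.7% of all probe sets). The remaining atrial genes, among them the transcription factor gene *Nr2f2* and the connexin gene *Gja5*, had ranges from 0.32 to 0.94.

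Genes of the ventricle had a median range of 0.60 over the hearts, near the 0.70 of the 15 other atrial genes and below the 4.99 of the 7 genes, which were chosen with their ranges known. *Myl2*, the ventricular regulatory light chain, had a range of 0.15 over the hearts, *Myl3*, the ventricular essential light chain, 0.15, and *Pln*, the gene of phospholamban, 0.053. These 3 genes lie near the top of the array's scale, whose highest value is 19.93, where differences may be compressed, and this was not tested. Of 12 ventricular genes, 1 was lower in *Col1a2*-/- hearts at an unadjusted p under 0.05 from limma and 0 were higher. Of all probe sets, 2.79% were lower and 2.67% higher, so 1 gene of 12 is not a result about the list. It was *Kcnj2*, a subunit of the inward rectifier potassium channel, with 8.37, 8.52 and 8.82 in *Col1a2*-/- hearts 2767, 2770 and 3200, against 9.10, 9.15 and 8.88 in *Col1a2*+/- hearts 2769, 3201 and 3294 (adjusted p = 0.906). *Kcnd2*, a subunit of a transient outward potassium channel, had a range of 1.05. The median range was 0.22 for 10 genes of all chambers, such as the cardiac troponin T gene *Tnnt2*. Genes of the sinus node and of the venous pole, where the great veins enter the atria, had a median range of 1.04 over 9 genes, of which 5 had a mean above the dim limit. Of the 9, 4 were highest in heart 3294, as were 20.2% of all probe sets.

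**Figure D3:**
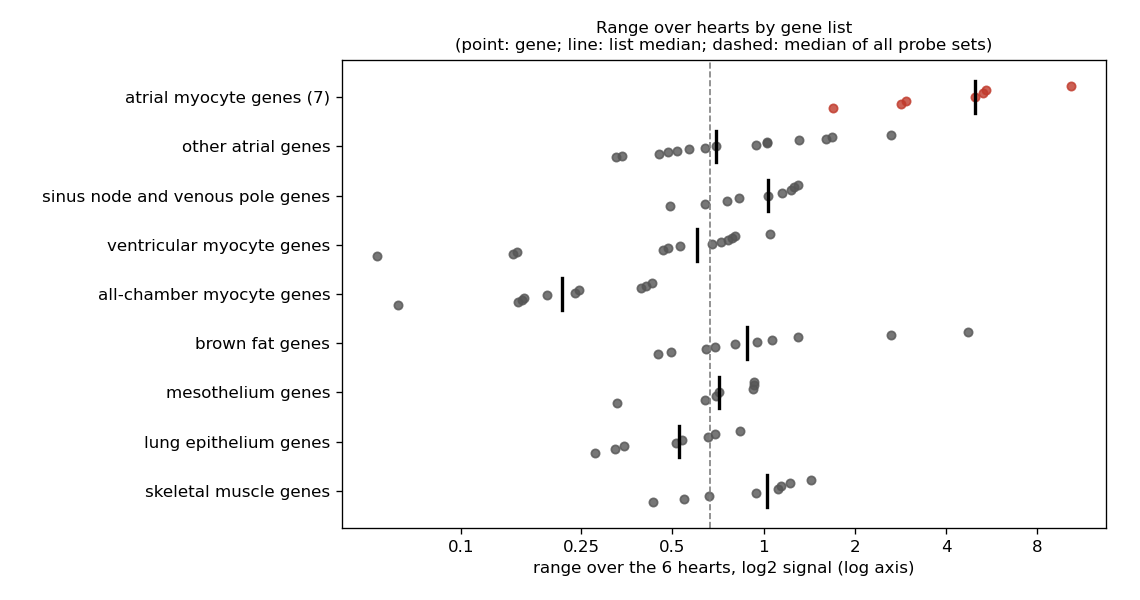
Range over the 6 hearts, highest minus lowest log2 signal, on a log axis, for each gene (points) of 9 gene lists, with the median of each list (black line) and of all probe sets (dashed, 0.66). The 7 atrial genes (red) range from 1.69 to 10.35, with a median of 4.99.

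The genes whose profile was most like the median profile of the 7 atrial genes were sought among 11450 other genes with a mean above the dim limit, by the root mean square difference of log2 signals over the 6 hearts after centring each gene. *Nppa* came first, at 0.53, within the span of the atrial genes other than *Bmp10*, which were between 0.43 and 0.78 from their own median profile. *Bmp10* was at 2.72. Next were *Nr4a3*, an orphan nuclear receptor (0.65), *Scd1*, a fatty acid desaturase (0.67), *Car3*, a carbonic anhydrase known from fat and muscle (0.68), and the chemokine gene *Cxcl13* (0.70). *Nr4a3* was measured at 8.16, 7.25 and 8.49 in *Col1a2*-/- hearts 2767, 2770 and 3200, against 6.59, 6.66 and 8.89 in *Col1a2*+/- hearts 2769, 3201 and 3294. *Scd1* resembled the atrial genes mainly through heart 3294, with 13.00 there and 9.44 to 9.92 elsewhere. The rest of the 10 were *Spsb1*, *Hamp*, *Npy1r*, *Olfr1256* and *Ccn2*, at 0.74 to 0.81. *Olfr1256* is a smell receptor gene, of the class that set the dim limit, and was above that limit in 3 of the 6 hearts (mean 6.15). *Hamp*, the gene of the iron hormone hepcidin, was at 10.48 in heart 2767 and 10.50 in heart 3294, against 8.76 to 9.74 in the others. All 10 were highest in heart 3294, which the choice favours, since the profile they were matched to peaks in that heart.

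**Figure D4:**
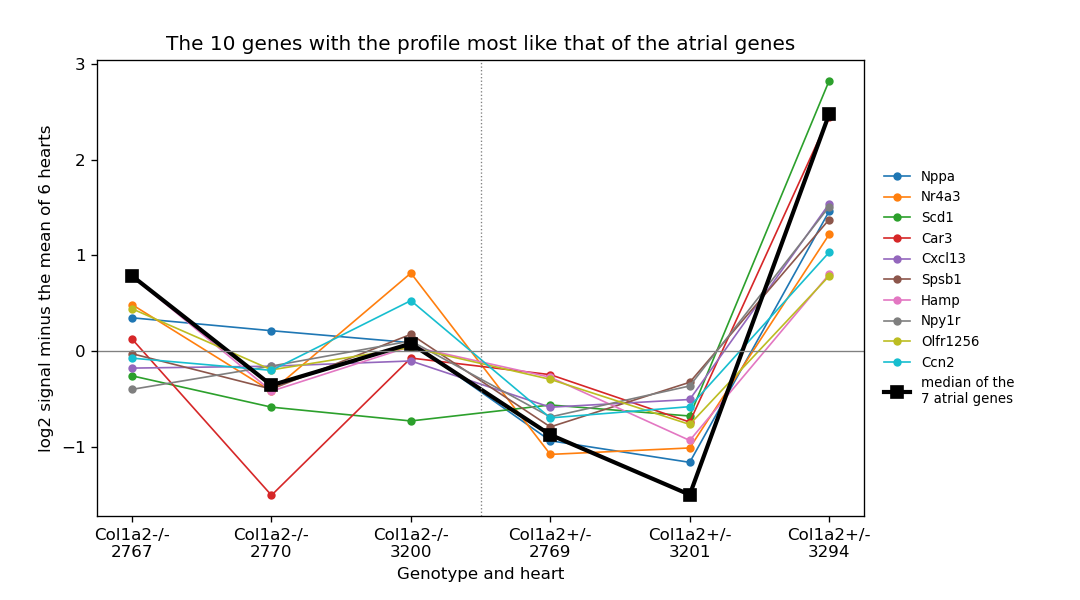
Log2 signal minus the mean of the 6 hearts for the 10 genes nearest in profile to the atrial genes (coloured lines) and for the median of the 7 atrial genes (black), with *Col1a2*-/- hearts on the left. All lines peak in heart 3294, where the median of the atrial genes is 2.48, and the choice by nearness to that median favours such a peak.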

How the data were processed

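Total RNA of 6 hearts was measured on Affymetrix Clariom S Mouse arrays. The authors deposited 1 log2 signal for each probe set, normalized and summarized with Affymetrix software (Expression Console per the labels). For differential expression the methods name Transcriptome Analysis Console and iPathwayGuide. Versions and the normalization are not given in the sources used here. No normalization was added. Of 28846 probe sets, 6640 controls were left out, and 22206 were tested, of which 19572 have a gene symbol in the platform's annotation. Genotypes, as labelled, were contrasted in limma 3.58.1 (lmFit, eBayes; R 4.3.3) as *Col1a2*-/- minus *Col1a2*+/-, with 4 residual degrees of freedom and Benjamini-Hochberg adjustment over all probe sets tested. Each heart is 1 animal, and precision is limited by having 6 arrays. The code was tested on simulated data. The 7 genes and all lists were chosen with earlier results of these data known, so lists are described by counts and medians. Genes named were the 7, *Col1a2*, genes of the atrial and ventricular lists above the dim limit with a range of at least 1 or an unadjusted p under 0.05, and the 10 genes nearest in profile. *Myl2*, *Myl3* and *Pln*, the marker genes and *Nr2f2*, *Gja5*, *Pam*, *Cacna1d* and *Tnnt2* were named outside this rule after their values were seen. Promoters came from RefSeq (GRCm38.p6).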

Additional observations from a re-analysis of the deposited data

How the results depend on the processing

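None of the 7 atrial genes passed an adjusted p under 0.05 in any of 96 values under up to 14 alternatives each (lowest adjusted p = 0.774, limma or Student's t-test). Quantile normalization, median centring, a trend and robust prior, 1 probe set per gene and the t-test kept the sign of each of the 7 differences, and so did a block for the series of animal numbers, while with array weights that of *Mybphl* was 0.010. Sizes moved more, with *Sln* and the median of the 7 at 0.54 with the block and 0.58 with array weights, against 0.18, and *Bmp10* at −1.74 with the block, against −2.92. *Myl7* was at 1.06 with array weights, against 0.69. Without dim probe sets, *Bmp10* and *Mybphl* had no value, and the median of the 5 left was 0.43. With each heart left out in turn, the log2 difference was −0.49 to 2.21 for *Myl7*, −0.50 to 2.00 for *Myl4*, −0.83 to 1.83 for *Sln*, −4.77 to 0.40 for *Bmp10*, −0.76 to 0.72 for *Mybphl*, −0.16 to 1.26 for *Dkk3*, −0.62 to 0.23 for *Stard10* and −0.046 to 1.27 for *Nppa*. The highest were without heart 3294. The lowest were without heart 3201, except for *Bmp10*, which was lowest without heart 2769. The median of the 7 was −0.62 to 1.26. Their median range was 2.19, without heart 3294, to 4.99, and their median series difference was −0.18, without heart 3294, to 1.29. The median of the other atrial genes was 0.0052 with array weights, 0.065 with that block and −0.086 to 0.069 with a heart left out, and that of the ventricular genes stayed under 0. Over all probe sets, 1 passed the adjusted p, and 2 did without dim probe sets or with a trend and robust prior (*Clec3a* the second), 0 with the t-test (with 547 and 600 at an unadjusted p under 0.05 that were higher and lower) and 0, without heart 2770 or heart 3294, to 4 with a heart left out. Without heart 2767 the 4 were *Col1a2*, *Mid1* and probe sets with no symbol. Counts at an unadjusted p under 0.05 were 592 higher and 619 lower, and 381 and 317 without dim probe sets, where fewer were tested. *Col1a2* had an adjusted p of 0.547 with the t-test, 0.0562 without heart 2770 and 0.0948 without heart 3294, with differences of −2.51, −2.56 and −2.54. The cause of these changes was not tested. No paired analysis was run, since the labels do not say which hearts are littermates. Means over several probe sets were not run, since each atrial gene had 1.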
